A study of Mus musculus with 34 samples.

Results

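The genes described here are 41 nuclear genes for oxidative phosphorylation, the mitochondrial process that turns the oxidation of fuels into ATP. They were listed by name and not by any measured value, though earlier results of these data were known. Complex I had 20 members, complex II 4, complex III 6, complex IV 6 and complex V 4, and Cycs, the gene of somatic cytochrome c, was the remaining member. Each of the 41 had 1 row among the 17515 transcripts of the RNA table. A peak carrying the gene's name within 1000 bp of a transcription start site was present for 34 members in the H3K4me3 table, for 31 in the KDM5A table and for 2 in the KDM5C table.

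In oxidative phosphorylation, complex I takes electrons from NADH and complex II takes them from succinate, and both pass them to ubiquinone. Complex III hands them on to cytochrome c, a small soluble carrier, and complex IV gives them to oxygen. Complexes I, III and IV move protons across the inner membrane, and complex V, the ATP synthase, lets them flow back to make ATP. Subunits are encoded in the nucleus, apart from a few of the mitochondrial genome that were not analysed here, and fat cell formation in culture is known to be accompanied by growth of the mitochondrial network. KDM5A, KDM5B and KDM5C are demethylases that remove methyl groups from lysine 4 of histone H3, and trimethylation of that lysine (H3K4me3) marks active promoters.

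All samples came from mouse 3T3-L1 cells, an established preadipocyte line that becomes fat cells when confluent cultures receive dexamethasone, insulin, IBMX and serum. RNA and H3K4me3 ChIP libraries covered cells transduced with lentiviral shKdm5ABC and cells transduced with the control shLuc, each at day 0, 4 hours and day 2 of differentiation, with 2 libraries in each of the 6 groups of an assay. Both arms received virus 4 days before induction, for 24 hours with polybrene at 6 ug per mL. KDM5A ChIP covered day 0, 4 hours and day 2 with 2 libraries each, KDM5C ChIP covered day 2 with 2 libraries, no transduction is stated for these, and 1 input library was used. The titles number the replicates exp 1 and exp 2, and no label says whether these were separate cultures, so p-values measure the spread between these libraries, which may be technical.

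RNA levels are log2 of normalized tags per kb, so that a difference of 1 is a doubling. The depth behind the RNA values is unknown, ChIP libraries held 3.87 to 17.6 M tags for KDM5A and 8.37 to 13.6 M for H3K4me3, and intervals from such counts would cover counting error only. Kdm5a, Kdm5b and Kdm5c RNA was lower in shKdm5ABC than in shLuc at all 3 times, with a median log2 difference of -0.90 at day 2, and all 10 adipocyte markers were higher at day 2 than at day 0 in shLuc (median 5.28). Several H3K4me3 columns went against their headings. Over 7630 genes, each centred over the 6 groups, the RNA of shLuc at day 2 correlated best with the H3K4me3 columns headed KDM5_KD_4h (0.70) and only weakly with those of its own heading (0.08), and the RNA of shLuc at 4 hours correlated best with columns headed Control_D2 (0.45, against -0.13 for its own). The RNA of shLuc at day 0 correlated best with its own heading (0.48), the only 1 of the 6 groups to do so, and the own headings of shKdm5ABC gave 0.32 at day 0, -0.24 at 4 hours and 0.29 at day 2. H3K4me3 columns are therefore named below by their headings, and no direction of knockdown or time is drawn from them.

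Promoter sequences of 6 members are shown because the comparisons below turn on them. Cycs, Ndufb3 and Ndufa4 passed the test of the knockdown at day 2, Ndufs8 was lower at 4 hours than at day 0 in both arms, and Ndufs7 and Cox7b had the highest and the lowest KDM5A signal. Each covers 250 bases before to 50 bases after the RefSeq start site in GRCm38.p6, 5′ to 3′ on the gene's strand, and capitals mark a match to 1 of 5 motifs named below. The positions are chr6:50566520-50566819 (minus strand) for Cycs, chr1:58586147-58586446 (plus) for Ndufb3, chr6:11907401-11907700 (minus) for Ndufa4, chr19:3912725-3913024 (minus) for Ndufs8, chr10:80249199-80249498 (plus) for Ndufs7 and chrX:106015450-106015749 (plus) for Cox7b.
Cycs: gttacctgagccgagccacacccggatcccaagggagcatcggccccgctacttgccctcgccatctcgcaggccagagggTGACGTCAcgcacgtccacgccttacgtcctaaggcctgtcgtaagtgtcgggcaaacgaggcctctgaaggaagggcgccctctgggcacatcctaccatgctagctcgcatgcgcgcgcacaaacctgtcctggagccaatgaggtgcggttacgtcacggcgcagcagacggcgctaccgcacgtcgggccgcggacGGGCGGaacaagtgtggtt
Ndufb3: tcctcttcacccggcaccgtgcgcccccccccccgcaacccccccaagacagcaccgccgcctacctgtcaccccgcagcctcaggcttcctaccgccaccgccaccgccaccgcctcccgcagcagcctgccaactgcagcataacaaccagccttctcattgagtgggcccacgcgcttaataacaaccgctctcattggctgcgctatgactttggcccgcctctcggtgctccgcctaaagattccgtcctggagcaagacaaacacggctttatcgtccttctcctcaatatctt
Ndufa4: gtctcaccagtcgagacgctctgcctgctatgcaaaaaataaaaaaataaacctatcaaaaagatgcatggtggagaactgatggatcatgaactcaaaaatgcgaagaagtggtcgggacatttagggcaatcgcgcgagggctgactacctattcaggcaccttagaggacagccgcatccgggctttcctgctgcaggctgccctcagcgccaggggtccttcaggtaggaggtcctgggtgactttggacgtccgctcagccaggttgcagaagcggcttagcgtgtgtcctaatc
Ndufs8: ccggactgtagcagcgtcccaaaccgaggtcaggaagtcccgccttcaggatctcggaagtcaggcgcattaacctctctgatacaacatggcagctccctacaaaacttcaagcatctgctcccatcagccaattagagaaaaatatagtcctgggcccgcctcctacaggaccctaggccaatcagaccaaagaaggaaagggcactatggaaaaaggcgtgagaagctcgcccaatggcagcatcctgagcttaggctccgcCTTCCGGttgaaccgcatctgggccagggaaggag
Ndufs7: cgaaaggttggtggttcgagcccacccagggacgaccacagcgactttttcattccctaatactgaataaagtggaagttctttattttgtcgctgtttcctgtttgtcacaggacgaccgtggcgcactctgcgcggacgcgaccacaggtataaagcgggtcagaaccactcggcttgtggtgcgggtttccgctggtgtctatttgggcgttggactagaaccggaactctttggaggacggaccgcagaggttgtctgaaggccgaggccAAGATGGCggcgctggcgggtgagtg
Cox7b: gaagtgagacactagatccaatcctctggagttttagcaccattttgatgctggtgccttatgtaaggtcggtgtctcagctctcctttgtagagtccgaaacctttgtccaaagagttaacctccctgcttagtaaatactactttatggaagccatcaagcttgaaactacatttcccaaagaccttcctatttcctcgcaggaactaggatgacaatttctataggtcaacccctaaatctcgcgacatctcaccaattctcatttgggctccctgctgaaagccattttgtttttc
In Cycs the capitals are a CREB motif, 169 to 162 bases before the start site, and an SP1 motif at bases 31 to 36. In Ndufs8 they are an ETS motif at bases 15 to 21, read on the other strand, and in Ndufs7 a YY1 motif at bases 24 to 31. Ndufb3, Ndufa4 and Cox7b held none of the 5 in this window.

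The motifs were searched on both strands in the RefSeq windows of 30 members and of all 17492 protein-coding genes with such a window. The NRF1 motif, GCGCA and GCGC with any base between them, was found in 8 members (26.7%, against 7.17% of all genes): Sdha, Sdhd, Uqcrc1, Ndufa5, Ndufa6, Ndufa8, Atp5c1 and Atp5o. The CREB motif TGACGTCA was found in 3 members, Cycs, Ndufa10 and Uqcrfs1 (10% against 2.54%), and the YY1 motif AAGATGGC in 3, Ndufa9, Ndufb8 and Ndufs7 (10% against 3.57%). The ETS motif CCGGAAG was found in 6 members (20% against 12.9%) and the SP1 motif GGGCGG in 14 (46.7% against 49.2%). A pair of overlapping matches occurred only in Ndufs3, between ETS and SP1. The windows were somewhat richer in G and C in the members, with a median of 59.2% against 56.3% over all genes, and how far that sets the shares was not tested. A gene on the opposite strand started within 1000 bp of 11 of the 30 members (36.7%) and of 2834 of the 17492 genes (16.2%).

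Levels differed widely between members. The mean over 12 libraries was lowest for Cycs (7.21 on the log2 scale per kb) and highest for Atp5b, the catalytic beta subunit of the ATP synthase (12.7). The median of the members' means was 9.75 in complex I, 9.93 in complex II, 9.98 in complex III, 10.6 in complex IV and 11.3 in complex V. Within complex I the range ran from Ndufb3 (8.21) to Ndufa4 (11.5), and within complex IV from Cox5b (9.63) to Cox8a (12.03). Short messages and genes with processed pseudogenes, of which Cycs and several small subunits have many, may share reads with their copies, and the library kit does not keep strand, so overlapping antisense reads cannot be separated.

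Between day 0 and day 2, RNA of the respiratory chain rose nearly throughout. In shLuc cells, 37 of the 41 members were higher at day 2 than at day 0 and none was lower (limma, adjusted p under 0.05), where 27.1% of all 13534 tested transcripts were higher and 27.8% lower. The median difference was 0.98 over the members and -0.01 over all transcripts. Every member of complexes II, III, IV and V and Cycs rose, and the 4 that did not pass the test, Ndufa1, Ndufa2, Ndufa6 and Ndufs8, all belong to complex I. Ndufa1 and Ndufa2 differed by 0.54 and 0.58 and passed once the replicate number was kept as a block, which gave 39 members higher (33.1% of transcripts). In bulk samples, fewer cells of a type and less RNA per cell cannot be told apart.

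**Figure D1:**
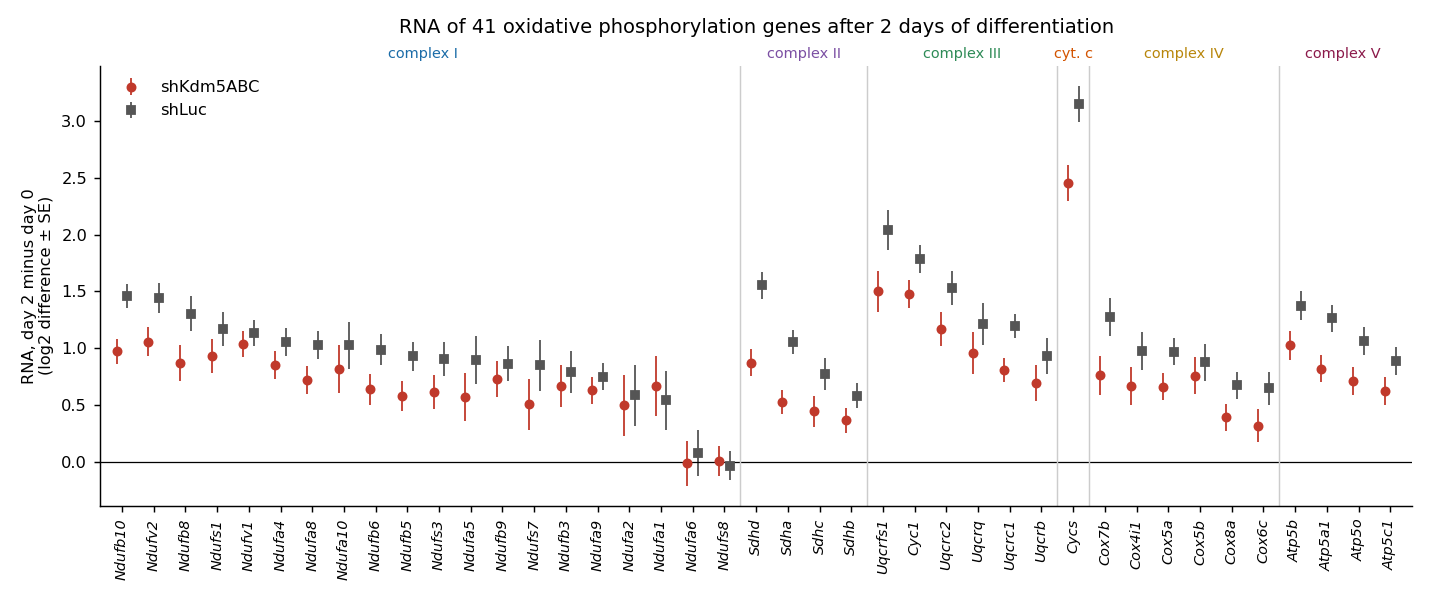
Fitted log2 difference in RNA between day 2 and day 0 for each of the 41 members, ordered within complexes (x axis), in shKdm5ABC cells (circles) and shLuc cells (squares), with bars for the standard error of the fit. Cycs stands highest in both arms at 2.46 and 3.15, while Ndufa6 and Ndufs8 sit near 0.

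Cycs changed most. In shKdm5ABC cells it stood at 5.65 and 5.80 at day 0, 7.53 and 7.48 at 4 hours and 8.0 and 8.37 at day 2. In shLuc cells the values were 5.83 and 5.49 at day 0, 7.42 and 7.31 at 4 hours and 8.77 and 8.84 at day 2. The 3 times did not overlap in either arm, and in shLuc the fitted log2 difference from day 0 was 1.71 ± 0.16 (SE) at 4 hours (adjusted p = 3.1e-05) and 3.15 ± 0.16 at day 2.

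Complex III had the largest median rise at day 2 in shLuc among the complexes, 1.37, against 1.16 in complex V and 0.91 to 0.92 in complexes I, II and IV. Uqcrfs1, the Rieske iron-sulfur protein, was at 9.12 and 9.37 at day 0, 9.46 and 9.5 at 4 hours and 11.12 and 11.44 at day 2 in shLuc, a rise of 2.04 ± 0.18 between day 0 and day 2. In shKdm5ABC it was at 9.22 and 9.35, then 9.5 and 9.59, then 10.51 and 11.06. Day 2 lay apart from both earlier times in each arm. Uqcrb, a small subunit, rose least in complex III, by 0.93, with 9.20 and 8.97, 9.36 and 9.10, and 9.69 and 9.85 over the 3 times in shKdm5ABC, and 9.21 and 8.90, 9.34 and 9.11, and 10.11 and 9.87 in shLuc. Uqcrq, the most abundant of the 6, was at 10.18 and 9.94, 10.77 and 10.27, and 10.91 and 11.12 in shKdm5ABC, and at 10.28 and 10.13, 10.76 and 10.40, and 11.48 and 11.35 in shLuc. Both had their highest values at day 2 in each arm.

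In complex I the largest rise was that of Ndufb10, an accessory subunit of the membrane arm. Its shKdm5ABC values were 10.07 and 9.99 at day 0, 10.06 and 9.96 at 4 hours and 10.97 and 11.03 at day 2, and its shLuc values were 9.97 and 9.85, 10.23 and 10.09, and 11.41 and 11.33 at the same times. At day 2 its shLuc level was 1.46 ± 0.11 above day 0. Ndufs8, which carries iron-sulfur clusters in the electron path of complex I, was lower at 4 hours than at day 0 in both arms. It read 9.04 and 8.94 at day 0, 8.65 and 8.35 at 4 hours and 9.01 and 8.99 at day 2 in shKdm5ABC, and 9.29 and 9.21, 9.0 and 8.74, and 9.28 and 9.15 in shLuc. The 4-hour libraries were the lowest of each arm, and day 2 differed from day 0 by only -0.03 ± 0.13 in shLuc. Correlated over the 12 libraries with the mean of the other members, Ndufs8 (0.33) and Ndufa6 (0.39) had the lowest values and Ndufb10 (0.99) the highest, a description over points that share arms and times.

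The succinate dehydrogenase genes of complex II rose by between 0.58 (Sdhb) and 1.55 (Sdhd) in shLuc. Sdhd, a membrane anchor, was at 9.84 and 9.54, then 9.56 and 9.70, then 10.49 and 10.63 over the 3 times in shKdm5ABC, and at 9.44 and 9.46, 9.57 and 9.59, and 10.96 and 11.04 in shLuc. Sdhb, the iron-sulfur subunit, read 9.48 and 9.46, 9.27 and 9.23, and 9.76 and 9.90 in shKdm5ABC, and 9.69 and 9.58, 9.71 and 9.54, and 10.15 and 10.28 in shLuc. Both were flat up to 4 hours in shLuc and highest at day 2. Sdhc, the other membrane anchor and the most abundant of the 4, was at 10.08 and 10.16, 9.75 and 9.82, and 10.40 and 10.73 over the 3 times in shKdm5ABC, and at 10.00 and 10.01, 9.88 and 10.04, and 10.64 and 10.91 in shLuc.

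In complex IV, Cox7b rose most and Cox6c least, by 1.27 ± 0.17 and 0.64 ± 0.14 in shLuc. Cox7b, a small nuclear subunit, was at 9.93 and 9.51, 10.12 and 9.82, and 10.49 and 10.47 over the 3 times in shKdm5ABC, and at 9.46 and 9.18, 9.75 and 9.59, and 10.70 and 10.49 in shLuc. Cox6c, also a small subunit, read 10.47 and 10.25, 10.65 and 10.56, and 10.66 and 10.69 in shKdm5ABC, and 10.34 and 10.07, 10.62 and 10.40, and 10.97 and 10.73 in shLuc. Cox8a, the most abundant, read 11.89 and 11.88, 12.17 and 11.996, and 12.28 and 12.27 in shKdm5ABC, and 11.68 and 11.59, 11.97 and 11.98, and 12.35 and 12.26 in shLuc. Day 2 lay above day 0 for all 3 genes in both arms, and the 2 arms overlapped at day 2 for Cox7b and Cox8a.

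In complex V, Atp5b was at 12.20 and 12.18, 12.59 and 12.53, and 13.13 and 13.31 over the 3 times in shKdm5ABC, and at 12.13 and 12.16, 12.60 and 12.52, and 13.50 and 13.53 in shLuc. Its shLuc difference between day 2 and day 0 was 1.37 ± 0.13 (adjusted p = 1.3e-05). Atp5c1, the gamma subunit that forms the rotating shaft, rose least, by 0.89, and read 9.47 and 9.66, 9.29 and 9.34, and 10.03 and 10.33 in shKdm5ABC, and 9.65 and 9.62, 9.69 and 9.63, and 10.45 and 10.59 in shLuc. Both genes were highest at day 2 in each arm.

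**Figure D2:**
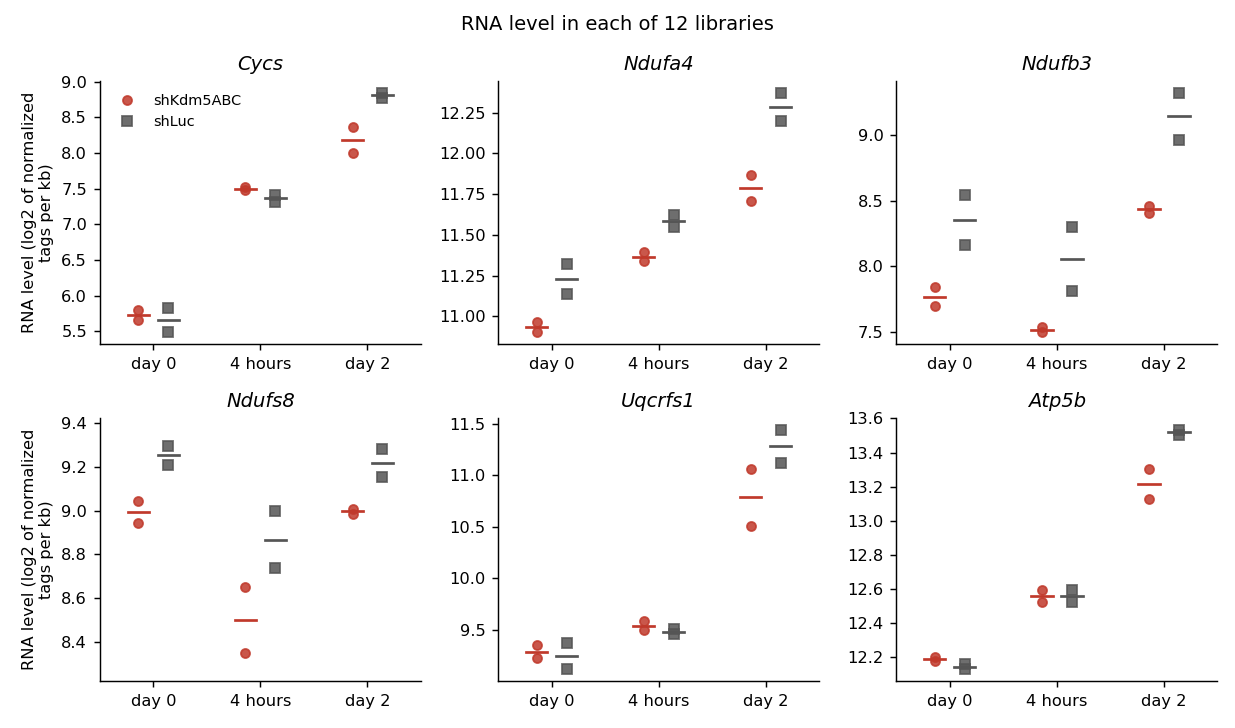
RNA level (log2 of normalized tags per kb) in each of the 12 libraries for 6 members, with shKdm5ABC as circles, shLuc as squares and lines for the mean of 2 libraries. Cycs climbs at both later times in each arm, Ndufb3 lies lower in shKdm5ABC at all 3 times, and Ndufs8 dips at 4 hours.

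Without the replicate block, few members moved in the first 4 hours, and more did with it. In shLuc, 8 were higher than at day 0 and 1 was lower (20.7% and 21.6% of transcripts). In this fit the share of members that rose was near that of all transcripts, while fewer of them fell. The 8 were Cycs, Cox5a (0.65 ± 0.12), Cyc1 (0.47), Atp5b (0.42), Ndufa8, Ndufa4, Atp5a1 and Cox8a, and the lower one was Ndufs8 (-0.38 ± 0.13, adjusted p = 0.038). Ndufa6, an accessory subunit, was also lower at 4 hours, by a fitted -0.50 ± 0.20 in shKdm5ABC and -0.27 ± 0.20 in shLuc, which passed only with the replicate block (limma adjusted p = 0.061 and 0.30, with the block 0.00078 and 0.028). With the replicate block, 18 were higher and 3 lower (28.4% and 30.1% of transcripts), and leaving out any 1 of the 4 libraries left 2 or 3. In shKdm5ABC, 6 were higher and 1, again Ndufs8, was lower, where 22.4% of transcripts were higher and 23.7% lower. The block gave 15 higher and 5 lower (29.9% and 31.1% of transcripts), and 3 passed without replicate 1 of day 0 and 4 without replicate 2 of day 0. Between 4 hours and day 2, 34 members rose in shLuc (22.9% of transcripts were higher) and 30 in shKdm5ABC (20.4%), with none lower in either. With the replicate block, 41 and 38 were higher, where 30.2% and 28.0% of transcripts were.

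The rise to day 2 was smaller in shKdm5ABC cells for most members. There, 35 of 41 were higher at day 2 than at day 0 and none was lower, where 22.0% of all transcripts were higher, and the median difference was 0.71 over the members and 0.00 over all transcripts. All 35 had also risen in shLuc, and Cox6c and Ndufs7 passed in shLuc but not in shKdm5ABC. With the replicate block both passed in shKdm5ABC as well, among 39 members (29.7% of transcripts were higher). By complex the medians were 0.67 in I, 0.48 in II, 1.06 in III, 0.66 in IV and 0.76 in V, each below that of the same complex in shLuc, and Cycs rose by 2.46 ± 0.16. The difference was smaller in shKdm5ABC for 39 of 41 members, while 49% of all transcripts had a larger difference there. This was not particular to the members. It was also smaller for 13 of 13 citric acid cycle genes, 10 of 10 adipocyte markers, 8 of 8 proliferation genes and 34 of 36 further subunit genes. Of 34 assembly factors it was smaller for 26, while all 8 preadipocyte markers went the other way. Tested directly as the knockdown difference at day 2 minus that at day 0, 0 members passed in limma (0.310% of all transcripts did, and 1617 had an unadjusted p under 0.05), with a median of -0.31 over members and -0.01 over all transcripts. With the replicate block 5 members passed, all lower: Sdhd (-0.68 ± 0.17, adjusted p = 0.020), Sdha, Ndufb10, Cox7b and Atp5a1, where 2.91% of transcripts were lower. Against 4 hours instead of day 0, 0 passed (0.148%, 1725 at an unadjusted p under 0.05). The block called Cycs and Sdha lower, where 3.41% of transcripts were.

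The knockdown was compared with shLuc at each time. At day 2, 3 members were lower in shKdm5ABC and none was higher: Cycs, Ndufb3 and Ndufa4. Of all transcripts 3.34% were lower and 5.66% higher, the background against which 3 of 41 stands. Cycs, with the values given above, was lower by 0.62 on the log2 scale (SE 0.16, limma adjusted p = 0.038). Ndufa4 is a small subunit listed here under complex I, though it associates with complex IV. At day 2 it was at 11.71 and 11.87 in shKdm5ABC and 12.37 and 12.20 in shLuc. At day 0 it had been at 10.97 and 10.90 in shKdm5ABC and 11.32 and 11.14 in shLuc. At 4 hours it was at 11.39 and 11.34 in shKdm5ABC and 11.62 and 11.55 in shLuc. Its day 2 values gave a difference of -0.50 ± 0.12 (adjusted p = 0.038). Neither gene overlapped between the arms at day 2. Without replicate 1 of shKdm5ABC, or without either shLuc replicate of day 2, 0 members passed, and 5 passed without replicate 2 of shKdm5ABC.

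Ndufb3, an accessory subunit of the membrane arm, was lower in shKdm5ABC at every time. Its values were 7.84 and 7.70 in shKdm5ABC and 8.55 and 8.17 in shLuc at day 0, 7.54 and 7.50 against 8.30 and 7.82 at 4 hours, and 8.41 and 8.46 against 9.32 and 8.96 at day 2. No pair overlapped. The fitted differences were -0.59, -0.54 and -0.71 (SE 0.19 each), with adjusted p of 0.19, 0.23 and 0.043 in limma and 0.015, 0.022 and 0.0024 with the replicate block. The knockdown difference at day 2 minus that at day 0 was -0.12 ± 0.26 for Ndufb3, and -0.70 ± 0.22 for Cycs (adjusted p = 0.93 and 0.22), whose arms overlapped at day 0.

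Most other members leaned the same way at day 2 without passing. The fitted difference was negative for 40 of 41 members, with a median of -0.29, where the median of all transcripts was 0.00 and 49.5% of them were positive. Ndufa1 alone was positive, at 10.06 and 9.76 in shKdm5ABC and 9.91 and 9.43 in shLuc (0.24 ± 0.26). The mean over the 41 members was 10.39 and 10.51 in the 2 shKdm5ABC libraries and 10.76 and 10.71 in those of shLuc. For 32 members the arms did not overlap, against 15 at day 0 and 16 at 4 hours. The share of all transcripts without overlap was not counted, so these counts cannot be read as particular to the members. With 2 libraries an arm, an exact permutation test gives p = 0.333 for arms that do not overlap. Transcripts in general also passed more often in limma at day 2 (3.34% lower and 5.66% higher). In either direction, 1.51% passed at day 0 and 1.44% at 4 hours. The replicate block called 20 members lower, where it called 14.2% of all transcripts lower, and Ndufa1 higher, where it called 13.9% higher.

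The complexes differed in how many members this reached. With the block, 5 of 6 members of complex III were lower (Uqcrc2, Uqcrfs1, Cyc1, Uqcrq and Uqcrc1), 3 of 4 of complex II (Sdha, Sdhb and Sdhd), 3 of 4 of complex V (Atp5a1, Atp5b and Atp5c1), 7 of 20 of complex I and 1 of 6 of complex IV (Cox5a). The 7 called in complex I include Ndufa4, listed there though it associates with complex IV. The median difference was -0.42 in complex III, -0.34 in II, -0.29 in V, -0.26 in I and -0.15 in IV. In complex III, Uqcrc2, a core protein, differed by -0.53 ± 0.15 (adjusted p = 0.055, with the block 0.0039). In complex IV, Cox8a and Cox5b differed by -0.03 and -0.07. Differences between complexes were not tested, since subunits of 1 complex are not replicates of each other.

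**Figure D3:**
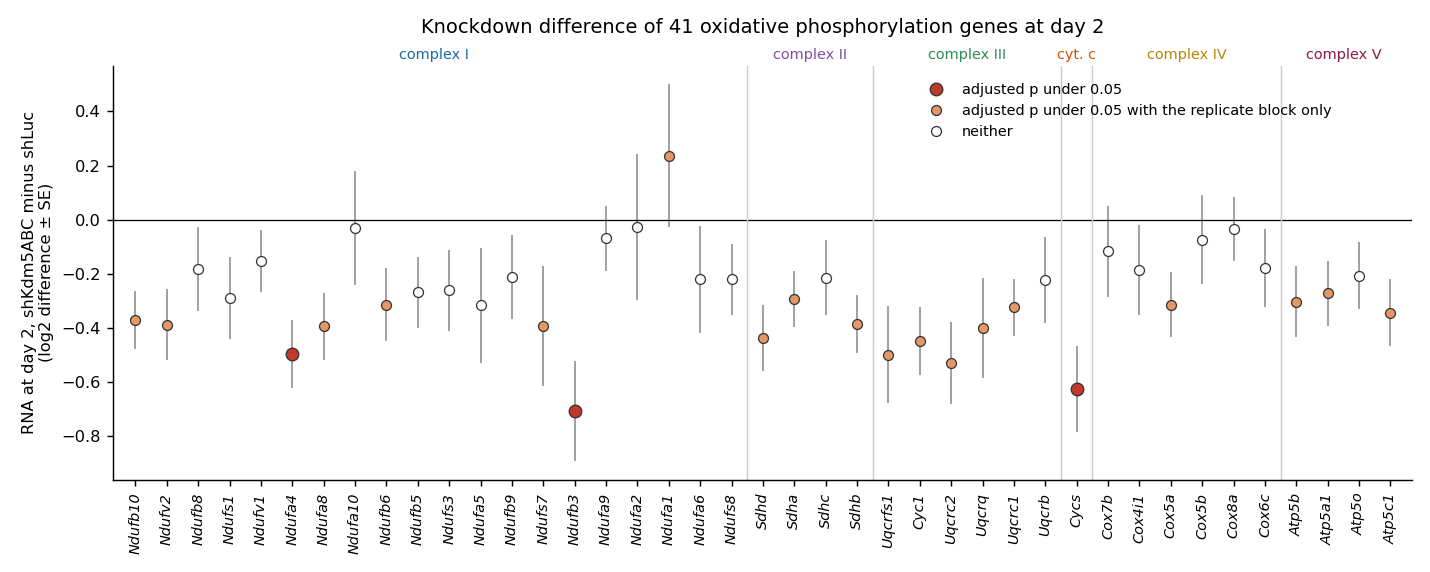
Fitted log2 difference in RNA between shKdm5ABC and shLuc cells at day 2 for each of the 41 members by complex, with bars for the standard error. Large red points (Cycs, Ndufa4 and Ndufb3) passed at an adjusted p under 0.05, orange ones passed only with the replicate block, and Ndufa1 alone lies above 0.

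Before day 2 the arms were closer. At day 0, 0 of 41 members passed in limma (1.51% of transcripts did, 1725 had an unadjusted p under 0.05). The block called Cox7b higher and Ndufb3 lower, where it called 9.44% of transcripts. At 4 hours again 0 passed (1.44%, 1807 at an unadjusted p under 0.05). The block called 5 lower, Ndufb3, Ndufs8, Sdhb, Atp5c1 and Ndufa6, where it called 9.68%. The median over members was 0.04 at day 0 and -0.05 at 4 hours, with 25 and 17 of 41 positive, where 51.6% and 51.1% of transcripts were.

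Other genes of the pathway, taken from lists of gene names, were compared at the same times, and their counts stand against the shares of all transcripts given above (27.1% higher and 27.8% lower at day 2 than at day 0 in shLuc, and 3.34% lower and 5.66% higher in shKdm5ABC at day 2, or 14.2% and 13.9% with the block). Of the 13 genes of the citric acid cycle, which feeds NADH and succinate to the chain, all 13 rose to day 2 in shLuc (median 1.249), among them Idh3a (3.13) and Mdh2 (1.74). At day 2, Idh3a was lower in shKdm5ABC, at a mean of 10.66 against 11.53 in shLuc (-0.87 ± 0.20, adjusted p = 0.026). It was the 1 of 13 called, and the block called 9. Of 36 further subunit genes, 26 rose to day 2, and Atp5f1 (-0.86 ± 0.11, adjusted p = 0.0027) and Ndufab1 (-0.49) were lower in shKdm5ABC at that time, 10 with the block. Of 34 assembly factors, which build the complexes without staying in them, 24 rose, with Atpaf2 (1.95) and Tmem70 (1.52) of smallest p, and Surf1 fell. None of the 34 passed for the knockdown at day 2, and 14 were lower with the block.

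Among 15 regulators of mitochondrial gene expression, 8 rose and 1 fell to day 2 in shLuc (27.1% and 27.8% of transcripts). Ppargc1b, a coactivator of mitochondrial genes, rose by 3.27 and its relative Ppargc1a fell by 2.62, while Esrra, a nuclear receptor they act on, rose by 1.29. Ppargc1a was the 1 regulator that passed for the knockdown at day 2 and was higher in shKdm5ABC (1.40 ± 0.35, adjusted p = 0.037). Tfam, which packages mitochondrial DNA, differed by -0.47 ± 0.15 (adjusted p = 0.081, with the block 0.0091). Of 4 tested subunit isoforms of other tissues, Cox6a2 was lower at day 2 than at day 0 and none rose.

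Markers of differentiation and growth moved at the same times, and their counts stand against the shares of all transcripts given above. All 8 proliferation genes rose to day 2 in shLuc (median 2.65), and 4 of 8, Ccna2, Cdk1, Mcm5 and Rrm2, were lower in shKdm5ABC at day 2 (median of the 8 -0.83; 8 of 8 with the block). Of 8 preadipocyte markers, 7 fell to day 2, and Pdgfra was higher in shKdm5ABC at day 2 (1.19 ± 0.26), 5 with the block. None of 10 adipocyte markers passed for the knockdown at day 2, and 4 were lower with the block (Cebpa, Cd36, Pparg and Fabp4). At day 0 the knockdown difference was positive for 9 of the 10 adipocyte markers (median 1.10), where 51.6% of transcripts were positive. Cebpa passed in limma (1.09 ± 0.22, adjusted p = 0.047), and the block called Cebpa, Cd36, Lipe and Fabp4 higher, as it did 4.38% of transcripts. The macrophage marker Cd68 was higher in shKdm5ABC at day 0 (1.498 ± 0.24) and 4 hours (1.28 ± 0.24), but not at day 2 (0.04 ± 0.24). The part of these markers in the members' differences was not tested. The leukocyte marker Ptprc was at the floor of the table, -5.57 in both arms at day 2, and the brown fat gene Ucp1 was at -3.95 there. Of the 5 brown fat genes listed, Elovl3 and Dio2 were tested. Elovl3, a fatty acid elongase, rose to day 2 in shLuc (4.10 ± 0.28) and was lower in shKdm5ABC at day 2 (-1.57 ± 0.28, adjusted p = 0.010), while Dio2, a deiodinase that activates thyroid hormone, differed by 1.43 ± 0.43 (adjusted p = 0.069, with the block 0.024). Outside the member list, the 5 transcripts whose log2 level followed the mean of the members most closely over 12 libraries were Pex16 (Pearson r = 0.99), Psma5, Mrpl18, Prr15l and Nit2, all at 0.99.

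KDM5A signal was high at the promoters of complex I genes. The deposited signal is tags in a peak scaled to a common library total. Over the 6 KDM5A libraries the median of the members' means was 573 tags for the 15 complex I genes with a peak of their name. It was 291 for Sdha, the 1 such gene of complex II, 270 in complex III, 269 in complex IV and 226 in complex V. Over all 31 members it was 322, and over all 11076 genes with a promoter peak it was 169. The median percentile among all promoter peaks was 96.1 for complex I and 80.7 for all 31 members.

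Complex I was also highest per kb of peak (313 tags, against 169 at Sdha, 167 in complex III, 130 in IV and 151 in V) and in each KDM5A library. The median of complex I divided by the median of the other members was 2.01 to 2.5 in the 6 KDM5A libraries and 1.24 in the input, where the medians were 18.9 and 15.3 tags. Replicate 1 was higher than replicate 2 at each time, with all-member medians of 431, 391 and 436 tags against 177, 220 and 295 at day 0, 4 hours and day 2. The difference between complexes was not tested, since genes are not replicates.

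The highest signal was at Ndufs7, a subunit that carries the last iron-sulfur cluster of complex I, whose peak lies at chr10:79711564-79714054 in mm9. It held 1039, 751 and 1364 tags in replicate 1 and 458, 752 and 730 in replicate 2 at day 0, 4 hours and day 2, against 18.9 in the input. Ndufv1, which binds NADH, had a mean of 778 tags and Ndufa9 of 759. The lowest was at Cox7b (chrX:103210156-103212202), with 188, 120 and 134 tags in replicate 1 and 102, 90.4 and 69.6 in replicate 2, against 9.0 in the input. The 2 genes were picked by these same tags, so their separation is no test. Ndufs7 was not highest per kb: its peak of 2490 bp held 341 tags per kb, below Ndufa5 (472) and Ndufv1 (440), among others. Among the other genes followed through the RNA comparisons, Ndufs8 had a mean of 573 tags, Uqcrq 348, Uqcrfs1 316, Uqcrb 247, Atp5b 225 and Cox6c 215. Complex I was not uniform: Ndufa6 (207), Ndufa8 (219), Ndufv2 (249), Ndufa4 (279) and Ndufb6 (376) lay in the range of the other complexes. Among peaks named for a member, Atp5o (440) and Cox8a (415) were the highest outside complex I. The peak over the promoter of Sdhd, in complex II, is named for Timm8b and held 521.

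**Figure D4:**
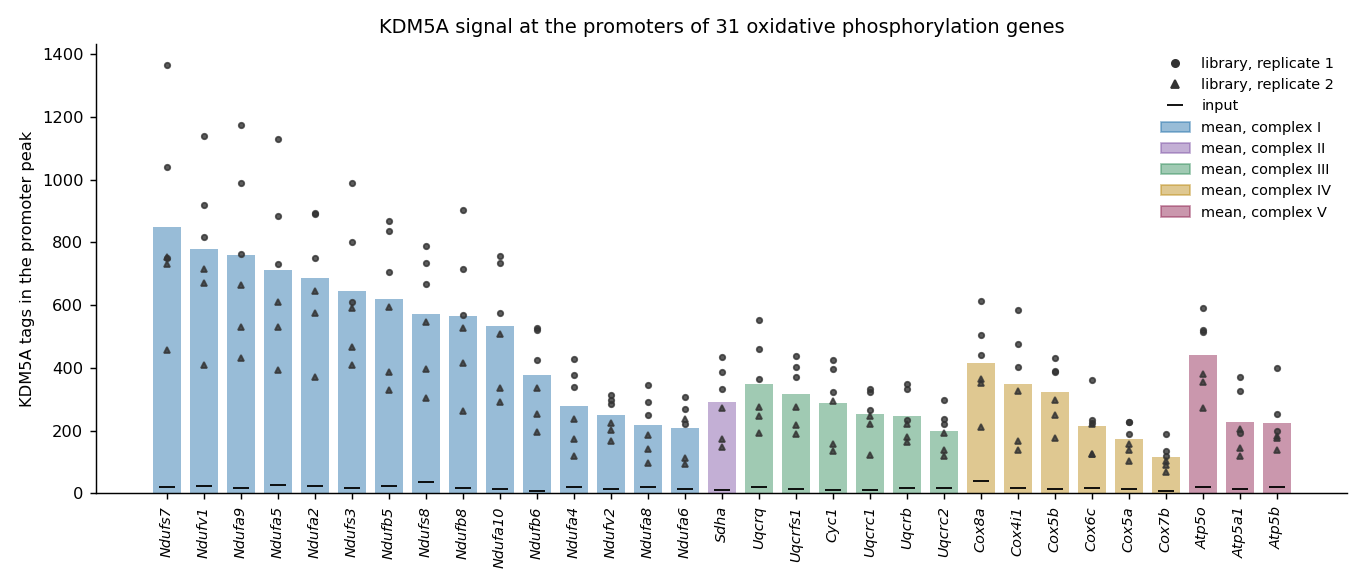
KDM5A tags in the promoter peak of 31 members (y axis), grouped by complex, with bars for the mean of 6 libraries, points for single libraries and a dash for the input. The 10 highest means, from 533 to 849 tags, all belong to complex I, and every library lies above the input.

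KDM5A signal at members did not change detectably over time. In limma 0 of 31 members passed between 4 hours and day 0 (0.0606% of 87525 peaks did, 4577 had an unadjusted p under 0.05), between day 2 and day 0 (0.173%, 5547) or between day 2 and 4 hours (0.607%, 9592), and edgeR on whole reads recovered from the tags (100% of values whole within 0.1) called 13, 559 and 592 peaks and again 0 members. The median difference of day 2 from day 0 was 0.35 over members, 28 of 31 positive, against 0.37 over all peaks, of which 65.5% were positive. The median was 0.42 in complex I, with 15 of 15 positive, and the value at Sdha was 0.53, while Cox7b (-0.51 ± 0.60) and Atp5b (-0.33 ± 0.68) were the lowest. The fitted standard errors of members ran from 0.60 to 1.04. For KDM5A the fit took the variance of each peak from the trend over all peaks, not from that peak's own libraries. With errors of this size only large changes could have passed.

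Each peak carries 1 gene name, and beside several members the peak had that of a neighbour. Ndufb3 and Fam126b start 64 bp apart on opposite strands, and the peaks there are named for Fam126b, with a mean of 691 KDM5A and 832 H3K4me3 tags. Ndufa1 shares its promoter with Rnf113a1, 16 bp away (162 KDM5A and 617 H3K4me3 tags). The KDM5A peaks at Sdhd, Cycs and Atp5c1 are named for Timm8b (521 tags), 5430402O13Rik (331) and Kin (240). Of the rest, Sdhb had its nearest H3K4me3 peak at 1175 bp, just outside the limit, with 632 tags, and Cox8a at 909 bp was the farthest inside, with 934. Ndufb9, Ndufb10, Ndufs1 and Sdhc had no peak of their name within 1000 bp in either table.

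H3K4me3 was present at 34 promoters, at a median of 816 tags over the members against 617 over all 9189 genes with a promoter peak. The complex medians in tags per peak were 993 in V, 870 in II, 850 in I, 750 in IV and 675 in III, and Cycs held 1116. Per kb of peak the order was another, with 366 tags in complex I, 355 in III, 350 in IV, 324 in II and 286 in V. Cox7b was lowest here too, with 300 tags, and Ndufs7, the highest for KDM5A, held 605. Cox4i1, a nuclear subunit of complex IV, was highest with 1227 tags over a wide peak of 5862 bases.

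The columns headed KDM5_KD_4h were compared with those headed Control_D0, a pair chosen after the heading check had been seen. Over 7630 genes, the H3K4me3 difference of this pair correlated at 0.78 with the RNA difference between day 2 and day 0 in shLuc. Since most members rose in that RNA comparison, a positive difference at their promoters was partly built into the choice and is no independent support. The difference was positive at all 34 promoters, with a median of 0.26 on the log2 scale against 0.03 over all 10702 peaks, of which 54.6% were positive. In limma 4 passed, all higher, where 5.49% of peaks were higher: Cox4i1, Cyc1, Uqcrfs1 and Ndufa10, of which only Uqcrfs1 was named by the rule and the others were chosen after their values were seen. With the replicate block 24 passed, where 20.5% of peaks were higher. Leaving out either column headed Control_D0, or replicate 1 of KDM5_KD_4h, left 1.

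Cox4i1 (chr8:123189208-123195070, mm9) had 1605 and 1424 tags in the columns headed KDM5_KD_4h and 930 and 1011 in those headed Control_D0 (0.64 ± 0.10, adjusted p = 0.0021). Uqcrfs1 had 776 and 648 tags against 532 and 500 (0.46 ± 0.13, adjusted p = 0.042). Neither overlapped. Cycs, whose RNA moved most, had 1321 and 983 tags against 1156 and 934 (0.13 ± 0.23), and these overlapped.

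**Figure D5:**
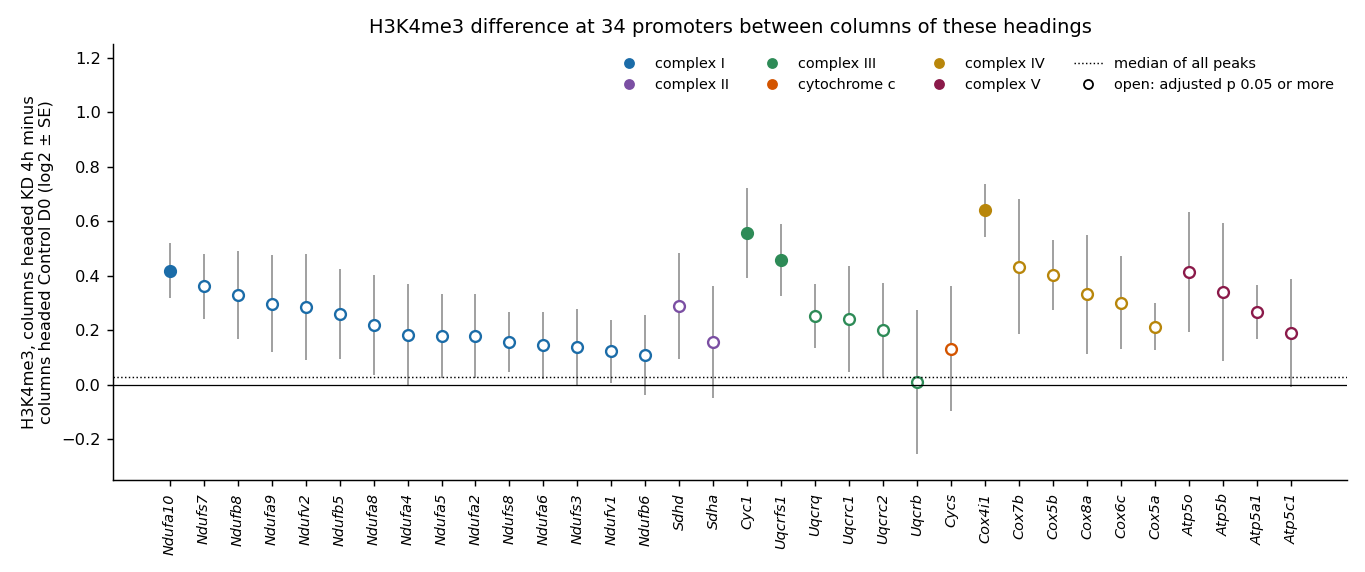
Fitted log2 difference in H3K4me3 tags between the columns headed KDM5_KD_4h and those headed Control_D0 at 34 promoters, by complex, with bars for the standard error and a dotted line at the median of all peaks (0.03). Every member lies above 0, and filled points (Cox4i1, Cyc1, Uqcrfs1 and Ndufa10) passed at an adjusted p under 0.05. The pair of headings was chosen after the heading check had been seen.

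In columns of matching time headings, few members passed, and most peaks but not all shifted in 1 direction. Of all peaks, 86%, 25.8% and 87.9% were positive for KDM5_KD against Control at D0, 4h and D2. Among the 34 members, 24, 29 and 27 were positive. For the columns headed KDM5_KD against those headed Control, 3 members were higher at D0 (32.7% of peaks were), 2 at 4h (1.62%) and 4 at D2 (23.8%), and none was lower, where 0.196%, 34.3% and 0.243% of peaks were lower. The median over all peaks was 0.29, -0.23 and 0.25 in these comparisons, and over the members 0.09, 0.16 and 0.12, so that relative to all peaks the members were lower, higher and lower. Cox4i1 was called in all 3. With each library centred on its median, 0, 9 and 0 members passed, and the replicate block called 8, 12 and 11 higher (58.7%, 7.61% and 52.1% of peaks) and, at 4h, Ndufs8 lower (50.6%). At D0, 0 passed without replicate 1 of Control or replicate 2 of KDM5_KD, and at 4h 0 passed without replicate 1 of either. At D2, 1 or 2 passed without any 1 of the 4 columns. For columns headed Control_4h against Control_D0, 2 were higher, Ndufs8 and Ndufa10 (27.8% of peaks were), with 0 without either column headed Control_D0 and 1 without replicate 2 of Control_4h, and for Control_D2 against Control_D0 limma called 0 (1.97%, 1335 at an unadjusted p under 0.05). The columns headed KDM5_KD_D0 were higher than those headed Control_D2 at 2 members, Ndufs8 and Ndufa10 (33.1%), with 0 when any 1 of the 4 was left out, and those headed KDM5_KD_D2 differed from KDM5_KD_4h at 0 (29.6%, 4085).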

How the data were processed

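RNA was measured in 12 libraries, H3K4me3 in 12, KDM5A in 6 and KDM5C in 2, with 1 input. The authors deposited RNA as log2 of normalized tags per kb, per the name of the table, with size factors and pseudocount not stated. The deposited ChIP signal is the tag number of each merged peak after scaling every library to 1 total. Bowtie2 (given as 0.12.8), Subread, DESeq2, STAR, HOMER and mm9 are named, per the submitters' processing notes.

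RefSeq IDs were named from a gene table (17253 of 17515) and the peak tables (144). Transcripts at 1 or more in 2 or more libraries were tested, 13534, including all 41 members. ChIP used log2(tags + 1) over all peaks. limma 3.58.1 (R 4.3.3, mean-variance trend, 1 fit per assay, two-sided, Benjamini-Hochberg adjusted p under 0.05) was checked on simulated data, and edgeR 4.0.16 on whole reads recovered from the deposited tags was an alternative for H3K4me3 and KDM5A. RNA and H3K4me3 fits had 6 residual degrees of freedom, KDM5A 3. An exact permutation test of 2 against 2 libraries cannot go below p = 0.333. Differences between same-numbered replicates correlated at 0.381 to 0.657 over 15 pairs of RNA groups and 0.504 to 0.790 for H3K4me3, so the numbers pair the samples. A replicate block is given where it changes the count of members, and for the other gene lists in some comparisons only.

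The members and lists were chosen with earlier results of these data known. Values were given for Cycs, members called at day 2, and in each complex the members of highest and lowest day 2 difference and of highest level. Where a gene had several peaks, that with the highest mean tags stood for it. The input labelled as virus was not analysed here.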

Additional observations from a re-analysis of the deposited data

Results flagged for a closer look

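KDM5C signal at members lay outside the comparisons above. In the 2 KDM5C libraries of day 2, with 2.95 and 8.13 M tags, 2 of the 41 members had a peak within 1000 bp of their start site, and both stood above the input. Uqcrq, a complex III subunit, averaged 22.4 tags (37.3 and 7.38, against 1.80 in the input). Ndufb6, a complex I subunit, averaged 15.1 tags (20.4 and 9.84, against 1.80). The 2 libraries lay further apart at Uqcrq than at Ndufb6, and no test was made with 1 input library.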

How the results depend on the processing

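Counts below are of members passing at an adjusted p under 0.05. With the replicate block, RNA counts moved to 2 at day 0, 5 at 4 hours and 21 at day 2 for the knockdown (from 0, 0 and 3), to 21 and 20 between 4 hours and day 0 in shLuc and shKdm5ABC (from 9 and 7), and to 5 and 2 for the knockdown difference at day 2 minus that at day 0 and at 4 hours. The block changed no other RNA count by over 1.5 times. For the knockdown at day 2, no filter gave 1, centring each library on its median 8 and only the groups compared 0, which also gave 3 between 4 hours and day 0 in shLuc.

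For H3K4me3 columns the block gave 8, 13 and 11 for KDM5_KD against Control at D0, 4h and D2, 9 for Control_4h against Control_D0, 9 for KDM5_KD_D0 against Control_D2, 7 for KDM5_KD_D2 against KDM5_KD_4h and 24 for KDM5_KD_4h against Control_D0. Centring gave 0, 9 and 0 for the first 3, 0 for Control_4h against Control_D0, 4, all lower, for KDM5_KD_D2 against KDM5_KD_4h, and for KDM5_KD_D0 against Control_D2 1, lower, a reversal. Only the groups compared gave 0 at 4h, 2 at D2, 0 for Control_4h against Control_D0 and 1 for KDM5_KD_4h against Control_D0, and peaks within 500 bp gave 1 at 4h. The causes were not tested.

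Leaving out 1 library gave 0 to 5 for the RNA knockdown at day 2, 0 at the other times and for both differences of differences, 2 to 3 and 3 to 6 between 4 hours and day 0, 36 to 37 and 29 to 33 between day 2 and day 0, and 31 to 33 and 23 to 29 between day 2 and 4 hours (shLuc and shKdm5ABC in each pair). For H3K4me3 it gave 0 to 3 at D0, 0 to 3 at 4h, 1 to 2 at D2, 0 to 2 for Control_4h against Control_D0, 1 to 3 for KDM5_KD_4h against Control_D0 and 0 elsewhere. An arm left with 1 library is assumed to vary like the others.

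Of 1056 values of single genes, 3 reversed, none of them called. Over the 4 libraries left out in turn, the knockdown difference at day 2 ranged from -0.081 to 0.012 for Cox8a (positive without shLuc replicate 1), and from -0.199 to 0.138 for Ndufa10 (0.117 without shLuc replicate 2 and 0.138 without shKdm5ABC replicate 1). A further 166 lost their call and 14 gained one. KDM5A replicate numbers were not taken as pairs (correlations 0.0470 to 0.333), and 0 members passed under the block or any other KDM5A setting. edgeR on whole reads recovered from the H3K4me3 tags (100% of values whole within 0.1) called as many members as limma, apart from KDM5_KD_4h against Control_D0, where it called 3, without Cyc1 (adjusted p = 0.052). With 2 libraries a group and unknown RNA depth, small changes are not detectable.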
